A study of Mus musculus with 6 samples.

Results

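The EGF-family ligands and ErbB receptors were examined in pancreata of E13.5 mouse embryos in which β-catenin had been stabilized. The list holds 7 ligand genes (Areg, Ereg, Btc, Egf, Tgfa, Hbegf and Nrg1) and 3 receptor genes (Egfr, Erbb2 and Erbb3), and a gene was taken from the array by its symbol, with no use of its measured values. Of the 10 genes, 9 could be analysed, out of 19938 genes tested. Areg was not analysed here because no row carried its symbol, alone or with others, in the array annotation used. The control pools were labeled wild type. The mutant pools, labeled Pdx-Cre beta catenin-exon3 floxed (active), came from Pdx1-Cre; Ctnnb1tm1Mmt/+ embryos, in which Cre driven by the Pdx1 promoter removes exon 3 from 1 copy of the β-catenin gene. Each genotype had 3 pools of 3 whole pancreata, and each pool was hybridized to 1 Affymetrix Mouse Gene ST array. Because the Pdx1 promoter drives Cre in the epithelium, the mesenchyme, nerves and vessels in these pools are not its target, and epithelial cells that escaped recombination may remain in the mutant pools.

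ErbB receptors are tyrosine kinases that pair up when a ligand binds and then signal mainly through the Ras-ERK and PI3K pathways. Egfr binds Egf, Tgfa, Areg, Ereg, Btc and Hbegf, Erbb3 binds the neuregulin Nrg1 and has a weak kinase of its own, and Erbb2 has no known ligand and acts as the partner of the others. Most of the ligands are made as membrane-bound precursors that proteases release. In the mouse pancreas, Egfr signaling is known to take part in islet morphogenesis and in the growth of the epithelium, and Erbb3 is also a receptor of neural crest cells and glial precursors.

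Among the 9 genes analysed, the 2 largest changes were those of receptors. Egfr rose 2.32-fold, Erbb3 fell 2.44-fold and Erbb2 did not pass the test. Of the 6 ligand genes, Btc was slightly lower and the other 5 did not pass. The members were thus 1 higher, 2 lower and 6 not passing, where 14.1% of all genes tested passed, 6.59% higher and 7.53% lower. Of the genes that passed, 46.6% were higher, against 54.8% with each array centered on its median and 36.9% with arrays centered on housekeeping genes. The test was limma on the authors' log2 values with the Benjamini-Hochberg adjustment over all genes, and a gene passed at an adjusted p under 0.05. The median log2 change, mutant minus control, was 0.06 for the 9 members and 0.03 for all genes tested. The 2 genotypes did not overlap in 4 of the 9 members (Egfr, Erbb3, Btc and Nrg1), beside 30.9% of all genes tested.

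As a check of the tissue, Pdx1, which marks the pancreatic epithelium, had array levels of 9.87, 9.95 and 9.97 across control pools and 5.86, 5.87 and 5.59 across mutant pools, and all 12 pancreatic genes listed were lower in the mutant pools. Ctnnb1 itself changed by 0.28 on the log2 scale (limma standard error (SE) 0.11, adjusted p = 0.148), and with probes all along the transcript this value cannot check the loss of its exon 3. Across genes, which are not independent replicates, r was 0.993 to 0.997 within a genotype and 0.973 to 0.979 between genotypes. The pools are described as independent. The p-values rest on the spread between 3 pools per genotype, which limma draws toward a typical spread over all genes tested.

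Egfr, the receptor of most ligands on the list, had levels of 7.94, 7.63 and 8.09 (log2) across control pools and 9.16, 9.04 and 9.11 across mutant pools. Every mutant pool lay above every control pool, and the mutant pools were closer to each other (SD 0.06, n = 3) than the control pools were (SD 0.24, n = 3). The log2 change was 1.22 (limma SE 0.12, 95% interval 0.94 to 1.49, adjusted p = 0.000112). Only 2.48% of the genes tested had a larger change in either direction.

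Erbb3, the neuregulin receptor, had levels of 10.15, 10.04 and 9.86 (log2) across control pools and 8.83, 8.46 and 8.90 across mutant pools. Every mutant pool lay below every control pool. The log2 change was -1.29 (limma SE 0.13, 95% interval -1.58 to -0.99, adjusted p = 0.000125), about as large as that of Egfr and in the opposite direction. Whether a lower value in whole pancreata comes from fewer cells that express a gene or from less RNA per cell cannot be told apart in these pools, for Erbb3 as for every other gene here.

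Erbb2, the partner receptor, had levels of 9.62, 9.34 and 9.59 (log2) across control pools and 9.64, 9.67 and 9.55 across mutant pools, so that the genotypes overlapped. The log2 change was 0.11 (limma SE 0.10, 95% interval -0.12 to 0.34, adjusted p = 0.597), an interval that leaves out a change as large as that of Egfr or Erbb3. A further row of the array, which carries the symbols of both Erbb2 and Sympk and was left out of the test, lay between 4.94 and 5.27 in all 6 pools. Erbb4, the remaining receptor of the family and not on the list, binds neuregulins and several ligands of Egfr. Its values were 5.60, 5.63 and 5.65 across control pools and 5.82, 6.08 and 5.91 across mutant pools, with no overlap. Its log2 change of 0.31 (SE 0.10) had an adjusted p = 0.0643 from limma, and the adjusted p fell to between 0.0415 and 0.0494 under 4 of the 15 alternatives, among them centering each array on its median and quantile normalization. In the other alternatives it stayed above the threshold and reached 0.184 without control replicate 1 and 0.159 with arrays centered on housekeeping genes.

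**Figure D1:**
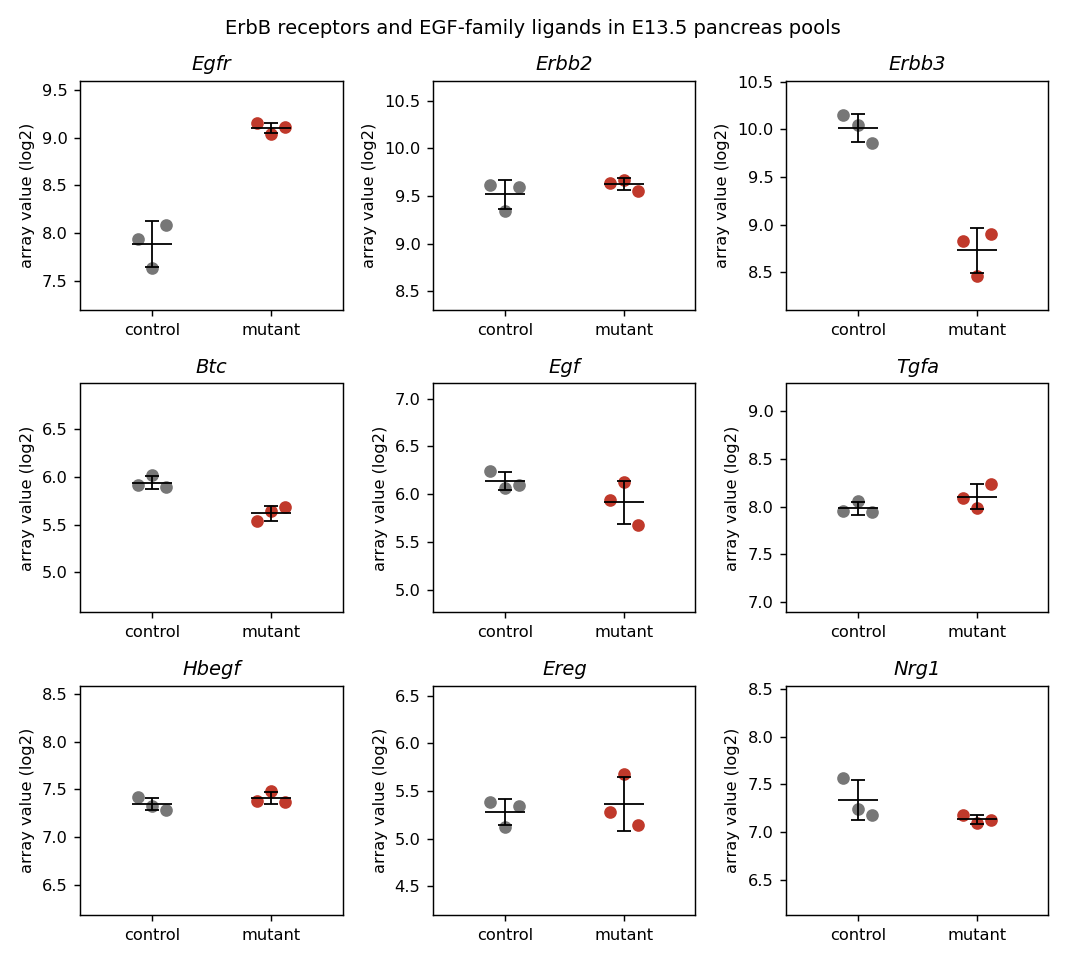
Array values (log2, vertical axis) of the 3 receptor genes and 6 ligand genes in 3 control pools (grey) and 3 mutant pools (red). Each point is 1 pool, bars are the mean and SD of 3 pools, and every panel spans the same range of log2 units; the mutant pools of Egfr lie above and those of Erbb3 below all control pools, while the shifts of the ligands are small.

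The sequence next to the transcription start is shown for the receptor gene that rose and for the partner receptor gene on the same chromosome that did not pass the test. Each is the stretch of 250 bases before the RefSeq start in assembly GRCm38.p6, on the plus strand, with GC boxes (GGGCGG, either strand) in capitals. Egfr lies at chr11:16751953-16752202 and Erbb2 at chr11:98412234-98412483.
Egfr: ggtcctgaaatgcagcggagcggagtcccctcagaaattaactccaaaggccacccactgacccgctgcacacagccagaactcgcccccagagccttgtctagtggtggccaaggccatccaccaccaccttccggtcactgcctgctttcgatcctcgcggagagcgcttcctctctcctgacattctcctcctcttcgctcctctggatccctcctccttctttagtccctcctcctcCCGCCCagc
Erbb2: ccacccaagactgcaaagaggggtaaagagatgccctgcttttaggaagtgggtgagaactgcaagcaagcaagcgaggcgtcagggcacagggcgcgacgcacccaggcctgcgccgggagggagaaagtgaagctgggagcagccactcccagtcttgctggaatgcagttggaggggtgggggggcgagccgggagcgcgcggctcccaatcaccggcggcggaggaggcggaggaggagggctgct
The Egfr stretch holds 1 GC box and the Erbb2 stretch 0, and their GC contents are 60.8% and 66.0%. The median is 52.4% over 32851 promoters of the same length, of which 32.7% hold a GC box. Of the other members with an entry, Tgfa, which did not pass the test, holds 2 GC boxes, Areg 1, and Btc and Egf 0. Erbb3 had no entry. The words CTTTGAA or CTTTGAT and, as a further pair, CTTTGTT or CTTTGTA, which match the core that TCF and LEF factors, the DNA-binding partners of β-catenin, recognize, were searched on both strands. Neither stretch holds any of them, while 14.8% of all promoters do; this says only that these letters are not in this window.

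Among the ligands, betacellulin (Btc), which binds Egfr and Erbb4, had levels of 5.92, 6.02 and 5.89 (log2) across control pools and 5.54, 5.64 and 5.69 across mutant pools. The genotypes did not overlap, and the log2 change was -0.32 (limma SE 0.09, 95% interval -0.53 to -0.11, adjusted p = 0.0452). This call was close to the threshold: without any 1 of the 6 pools the adjusted p lay between 0.0659 and 0.195, at log2 changes of -0.35 to -0.28. It was also lost with the replicate number as a block (adjusted p = 0.0890) and with each array centered on its median (adjusted p = 0.0674).

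Tgfa, a ligand of Egfr, had levels of 7.95, 8.06 and 7.94 (log2) across control pools and 8.09, 7.99 and 8.24 across mutant pools, and these overlapped. Its log2 change of 0.12 had a 95% interval of -0.10 to 0.34 (adjusted p = 0.515 from limma). Hbegf, the heparin-binding ligand of Egfr and Erbb4, lay between 7.29 and 7.42 in the control pools and between 7.37 and 7.48 in the mutant pools, with a log2 change of 0.06 (95% interval -0.14 to 0.26, adjusted p = 0.735). For both ligands, changes of the size seen in Egfr lie outside the interval.

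Egf, the founding ligand of the family, had levels of 6.24, 6.06 and 6.10 (log2) across control pools and 5.94, 6.13 and 5.68 across mutant pools. Mutant replicate 2 lay among the control pools, and the log2 change was -0.22 (95% interval -0.50 to 0.05, adjusted p = 0.315 from limma). Ereg (epiregulin), a ligand of Egfr and Erbb4, had levels of 5.38, 5.12 and 5.34 (log2) across control pools and 5.28, 5.68 and 5.14 across mutant pools. Its mean lay under the lower quartile of all genes tested (5.439), and its log2 change of 0.09 (95% interval -0.24 to 0.41, adjusted p = 0.790) turned to -0.07 without mutant replicate 2, its highest pool.

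Nrg1, the neuregulin that binds Erbb3, had levels of 7.57, 7.24 and 7.18 (log2) across control pools and 7.18, 7.09 and 7.13 across mutant pools. The mutant pools lay just below the lowest control pool, and the log2 change was -0.20 (limma SE 0.12, 95% interval -0.46 to 0.06, adjusted p = 0.337). The interval of this change does not reach that of Erbb3, the receptor of Nrg1.

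Of the 4 further ligands of the family, 1 was lower and 3 did not pass, beside 14.1% of all genes tested that passed. Nrg3, a neuregulin that binds Erbb4, had levels of 5.63, 5.56 and 5.47 (log2) across control pools and 5.16, 5.23 and 5.02 across mutant pools. Its log2 change was -0.41 (limma SE 0.10, adjusted p = 0.0165), and the adjusted p rose to between 0.0601 and 0.0739 without control replicate 1, mutant replicate 1 or mutant replicate 3 and to 0.0584 with every array row fitted. Nrg2 (log2 change -0.08), Nrg4 (0.08) and Epgn (epigen, -0.04) had adjusted p-values of 0.679, 0.661 and 0.909, and Nrg3, Nrg4 and Epgn were all under the lower quartile of level.

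**Figure D2:**
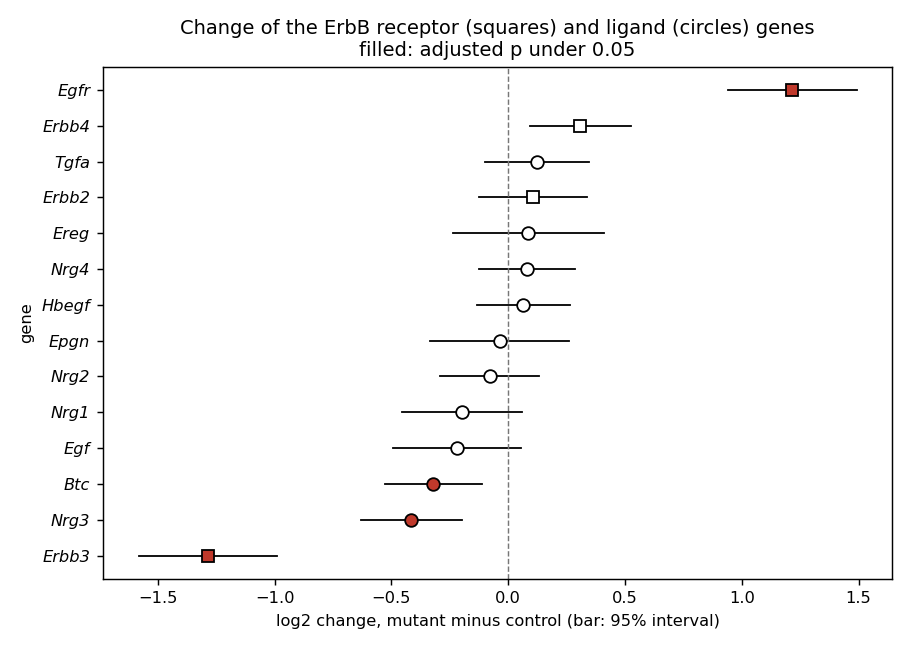
Log2 change, mutant minus control (horizontal axis), with its 95% interval for the 9 members, Erbb4 and the 4 further ligands, ordered by change. Squares are receptors, circles are ligands, and filled symbols passed the test; Egfr at 1.22 and Erbb3 at -1.29 stand at the ends, and all ligands lie between -0.41 and 0.12.

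Genes that release the ligands, genes that inhibit the receptors or take part in their turnover, and genes that carry or answer their signal were examined as 4 further lists. Of 16 genes of ligand release, 1 was higher and 1 lower, and 14 did not pass, beside 14.1% of all genes tested that passed. The median log2 change was 0.06, and the number that were higher reached 4 with array weights. Adam19, a metalloprotease that can cleave neuregulins, had levels of 9.63, 9.17 and 9.19 (log2) across control pools and 10.09, 9.96 and 9.91 across mutant pools, a log2 change of 0.65 (limma SE 0.13, adjusted p = 0.00810). Bace1, the protease that processes Nrg1 in nerves, was lower, with 10.32, 10.32 and 10.22 across control pools and 9.78, 9.73 and 9.73 across mutant pools (log2 change -0.54, limma SE 0.09, adjusted p = 0.00191). For both genes the genotypes did not overlap. Adam17 and Adam10, the main proteases of the Egfr ligands, which were named after their values were seen, had log2 changes of 0.02 (adjusted p = 0.931) and 0.00171 (adjusted p = 0.995).

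Of 17 inhibitors and turnover factors of the receptors, 2 were higher and 1 lower, and 14 did not pass, beside 14.1% of all genes tested that passed. The median log2 change was 0.04. The number that were higher was 4 with arrays centered on medians and 5 with array weights, and the number lower ranged from 0 to 2 over the alternatives. Lrig1, a membrane protein that restrains ErbB receptors and marks epithelial stem cells of the gut, had levels of 7.77, 7.89 and 7.79 (log2) across control pools and 9.14, 8.68 and 9.05 across mutant pools. It rose 2.21-fold (log2 change 1.14, limma SE 0.12, adjusted p = 0.000179). Ubash3b is a phosphatase that binds the ubiquitin ligase Cbl and counts here as a turnover factor, not as an inhibitor. It rose 1.96-fold, from 6.70, 6.79 and 6.38 to 7.52, 7.43 and 7.82 (adjusted p = 0.000977). Errfi1, a feedback inhibitor that binds the kinase of Egfr, moved the other way, from 10.48, 10.59 and 10.42 to 10.12, 9.90 and 10.09. Its log2 change was -0.46 (SE 0.10, adjusted p = 0.0122), and it narrowly lost its call when all rows of the table were fitted (adjusted p = 0.0503). In each of these 3 genes the genotypes did not overlap.

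Of 40 adaptors, kinases and other transducers analysed, 2 were higher and 5 lower, and 33 did not pass, beside 14.1% of all genes tested that passed. The median log2 change was 0.01, and 6 listed genes were not analysed here. Over the alternatives 1 to 4 were higher and 3 to 7 lower. Those that were lower included Pik3r1, the regulatory subunit of PI3K, with levels of 11.09, 11.01 and 11.15 (log2) across control pools and 10.22, 10.53 and 10.26 across mutant pools (log2 change -0.75, limma SE 0.11, adjusted p = 0.000993). Gab1, a docking protein between the receptors and PI3K, fell by 0.61 (SE 0.10) and Sos2, an activator of Ras, by 0.47 (SE 0.10) on the log2 scale. Eps8, a substrate of Egfr, fell by 0.46 (SE 0.12), with an adjusted p between 0.0644 and 0.0851 when control replicate 1, control replicate 2, mutant replicate 2 or mutant replicate 3 was left out, 0.0516 with the replicate number as a block and 0.0920 with every array row fitted. The fifth was Stat3, named after its values were seen (log2 change -0.44, SE 0.10), with an adjusted p between 0.0524 and 0.0799 when control replicate 1, control replicate 3 or mutant replicate 3 was left out and of 0.0676 with every array row fitted. The transducers that were higher were Vav3, a guanine nucleotide exchange factor (log2 change 0.57, SE 0.13), and Ksr1, a scaffold of the ERK cascade (0.54, SE 0.10). Vav3 had an adjusted p of 0.0506 and 0.0502 without control replicate 1 or 3 and of 0.0622 with every array row fitted.

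Genes that ERK signaling induces, a response that ErbB receptors share with FGF and other tyrosine kinase receptors, held the largest number of called genes among the lists of the pathway. Of 24 such genes, 10 were higher and 14 did not pass, while none was lower, with a median log2 change of 0.18, beside 6.59% of all genes tested that were higher and a median of 0.03. The number that were higher lay between 9 and 11 under the alternatives. The ETS factor Etv5 had levels of 8.07, 8.16 and 7.88 (log2) across control pools and 10.27, 10.13 and 10.55 across mutant pools, a 4.85-fold rise (adjusted p = 1.9e-06 from limma). Etv4, a close relative, rose 2.90-fold, from 6.63, 6.38 and 6.21 to 7.87, 7.93 and 8.03 (adjusted p = 1.57e-05). The ERK phosphatase gene Dusp6 rose 2.63-fold, from 9.07, 8.74 and 8.90 to 10.35, 10.15 and 10.40 (adjusted p = 2.54e-05). In all 3 genes every mutant pool lay above every control pool. Phlda1 rose 2.48-fold (adjusted p = 0.000206), and the other 6, named after their values were seen, were the feedback inhibitors Spry2 (log2 change 0.96), Spry4 (0.81), Spred2 (0.54), Spred1 (0.53) and Spred3 (0.30) and the phosphatase Dusp4 (0.71). Spred3 lost its call without any 1 pool (adjusted p from 0.0656 to 0.144) and with the block (0.0880), housekeeping centering (0.109) or all rows in the fit (0.0841). Egr1 and Fos, immediate early genes of the list that were also named after their values were seen, had log2 changes of -0.08 (adjusted p = 0.703) and 0.06 (adjusted p = 0.794). The mean of Fos lay under the lower quartile of all genes tested, so it may lie near background.

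**Figure D3:**
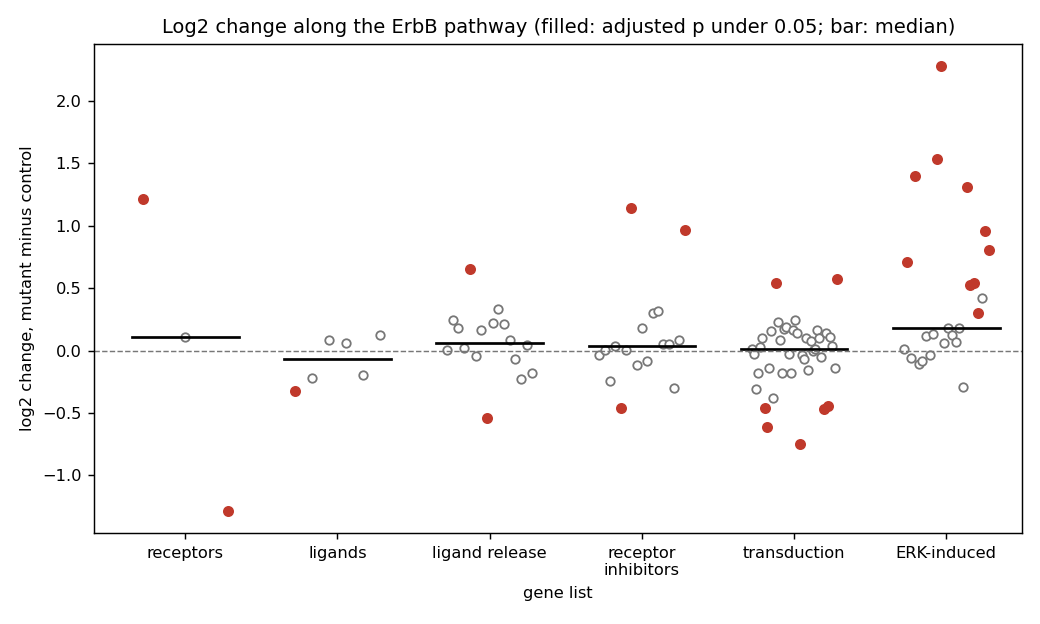
Log2 change, mutant minus control (vertical axis), of the receptors, the ligands, genes of ligand release, receptor inhibitors with turnover factors, transducers and ERK-induced genes. Each point is 1 gene, filled points passed the test and bars are list medians; 10 of the 24 ERK-induced genes and none of the 6 ligands were higher.

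Cell type markers moved beside the members. The counts of each marker list are to be read beside all genes tested, of which 14.1% passed, 6.59% higher and 7.53% lower. Of 23 epithelial markers, 19 were lower and none was higher, with a median log2 change of -0.79, and the mean level of the list lay at 9.50 to 9.73 (log2) in the control pools and 8.69 to 8.80 in the mutant pools. The largest changes were those of Krt8, a keratin of simple epithelia (log2 change -1.84, SE 0.12), and Prss8, a membrane-bound serine protease of epithelia (-2.02, SE 0.16). Cldn6, the brightest of the list, changed by -0.43 (SE 0.09). Epcam, named after its values were seen, changed by -0.39 (SE 0.11) and lost its call under 8 of 16 alternatives. The 4 markers that did not pass had changes up to 0.23. The log2 change of Erbb3, -1.29, lay within the range of the epithelial markers that passed (-2.02 to -0.37), and 5 of the 23 had a lower change. The mean change of the epithelial list was -0.84, so that the change of Erbb3 differed from it by -0.44, that of Erbb2 by 0.95 and that of Egfr by 2.06 on the log2 scale. The part of the epithelial shift in the values of the members was not tested.

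The 3 genes whose profile over the 6 pools lay nearest to that of Erbb3, after the mean of each gene was subtracted, were the Notch-induced gene Nrarp (Euclidean distance 0.178 in log2 units, log2 change -1.27), Naaladl2 (0.198, log2 change -1.31) and the tight junction gene Marveld2 (0.255, log2 change -1.25), the last of them also on the epithelial list. With 6 pools in 2 genotypes such a likeness rests mainly on the difference between the genotypes.

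Of 10 glial and neural crest markers analysed, cells in which Erbb3 is also found, 3 were higher and 4 were lower, with a median log2 change of -0.12 and mean levels of 7.17 to 7.27 in the control pools and 7.08 to 7.23 in the mutant pools. Of all genes tested, 6.59% were higher and 7.53% lower. Sox10, their defining factor, named after its values were seen, had levels of 7.66, 7.69 and 7.42 (log2) across control pools and 6.97, 7.02 and 6.95 across mutant pools, a log2 change of -0.61 (limma SE 0.10, adjusted p = 0.00239). Gfra3, a receptor of nerve cells and their precursors, fell by 2.42 (SE 0.10) on the log2 scale. Tfap2a, a factor of neural crest and also of epithelia, rose by 1.61 (SE 0.14). Ednrb and Sox2 of the same list, also named after their values were seen, rose by 0.89 (SE 0.10) and 0.69 (SE 0.14). The study lists Sox2 as a stomach gene, higher in the same arrays, so it is not a marker of glia alone here. Of 10 neuronal markers 8 were lower and none was higher (median -0.70, mean levels 7.11 to 7.20 in the control and 6.24 to 6.42 in the mutant pools). In the same pools Neurog3, a factor of pancreatic endocrine precursors, had a log2 change of -4.61 (SE 0.19). The part of endocrine cells in the lower neuronal markers was not tested. The part of glia and neurons in the lower value of Erbb3 was not tested either.

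Beside the higher value of Egfr, 6 of 17 mesenchymal markers were higher and 2 were lower (median 0.29, mean levels 9.81 to 9.92 in the control and 9.89 to 10.08 in the mutant pools). Prrx1, the largest change of that list, fell by 2.49 (SE 0.14) on the log2 scale, and Tcf21 rose by 1.26 (SE 0.14). Of 10 smooth muscle markers 7 were higher and 1 was lower (median 0.95, mean levels 7.15 to 7.22 and 7.92 to 8.05), with the smooth muscle actin Acta2 2.83-fold higher. The marker that was lower was Des, named after its values were seen, with a log2 change of -1.11 (SE 0.13). Of 10 endothelial markers 1 was higher and none was lower (median 0.27, mean levels 8.97 to 9.16 and 9.21 to 9.33), and of 10 leukocyte markers none was called (median 0.07, mean levels 7.42 to 7.50 and 7.44 to 7.61). With 14.1% of all genes tested passing, these counts do not set the endothelial or leukocyte list apart. Of 10 mast cell markers 6 were higher and none was lower (median 0.87, mean levels 6.10 to 6.41 and 7.25 to 7.63), and of 8 mesothelial markers 3 were lower and none was higher (median -0.27, mean levels 7.81 to 8.08 and 7.47 to 7.74). Which of these cells carry the additional Egfr RNA was not tested.

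**Figure D4:**
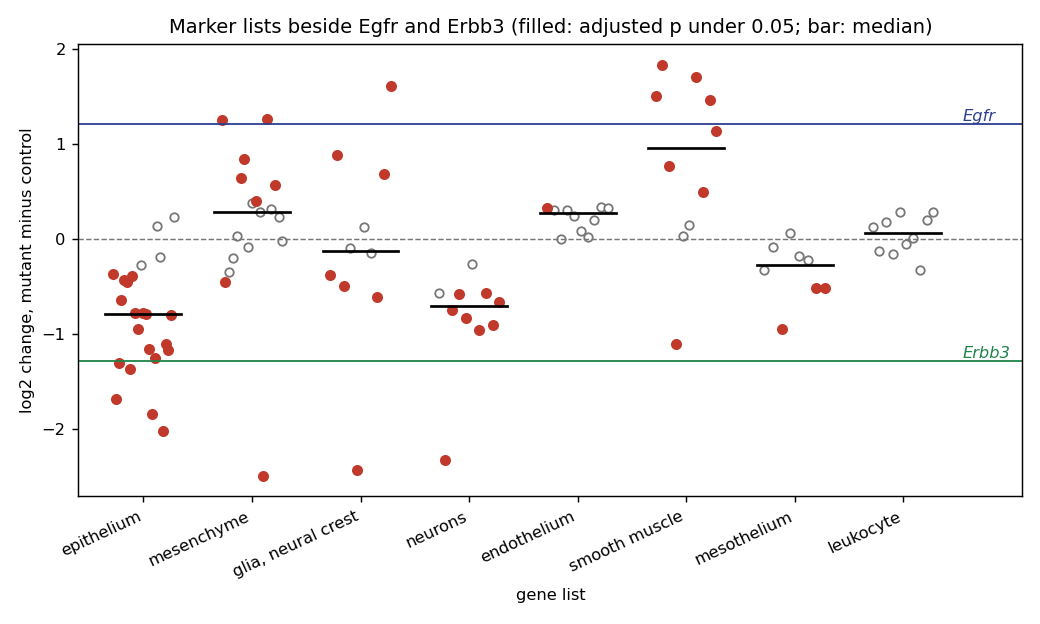
Log2 change, mutant minus control (vertical axis), of the genes of 8 marker lists, with horizontal lines at the values of Egfr (1.22) and Erbb3 (-1.29). Each point is 1 gene, filled points passed the test and bars are list medians; 19 of 23 epithelial markers were lower and the line of Erbb3 runs through that list.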

How the data were processed

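Values were taken from the authors' deposited table, which holds normalized log2 expression with 1 value per transcript cluster and pool on the Affymetrix Mouse Gene 1.0 ST array. The background correction, summarization and normalization behind these values were not given in the sources used here. The medians of the arrays ranged from 6.37 to 6.47 (log2). Detection calls and probe signals were not at hand, and the number of arrays and the spread between pools limit the precision.

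Rows with 1 symbol in the platform annotation (21789 of 35556 rows) were used, and the brightest row represented a gene with several. Mutant and control pools were compared in R 4.3.3 with limma 3.58.1 (linear model and empirical Bayes step, without covariates or a filter on level) and the Benjamini-Hochberg adjustment over 19938 genes. In 5 simulated sets of 19938 genes made for this comparison, limma called 35.2% of genes changed by 0.5 (log2), 84.8% of those changed by 1, and 0.0395% of the rest. Over the 5 sets, 250 genes were changed by each size and 98690 were left unchanged. That is a far smaller changed share than the 14.1% that passed here, so these rates may differ from those in the data. An exact permutation test of 3 pools against 3 reaches p = 0.1 at best, and limma was therefore used for single genes. Because probes differ between genes, levels were ranked across genes only for the filters on dim genes, the choice of named genes and a remark that a gene lies under the lower quartile.

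The members and lists were chosen with earlier results of these data known, and no list was tested as a set. Named are all members, all further family genes, up to 4 genes of each pathway list with the largest change in each direction among those that passed, up to 2 such genes and the brightest of each marker list, and the 3 genes nearest to Erbb3; not all of these are printed. Genes outside this rule are Ctnnb1 and those said to have been named after their values were seen. As alternatives, each pool was left out and the replicate number was added as a block; others were arrays centered on medians or housekeeping genes, quantile normalization, 2 filters on dim genes, the mean of all rows, the fit of every array row, whether it had 1 symbol, several or none, array weights, a prior that is trended and robust and other thresholds. Of 16 housekeeping genes analysed, 3 were higher and 1 was lower, beside 14.1% of all genes tested that passed. Promoter sequences are from RefSeq, with entries used for 6 members. Tables and figures were made with Python 3.11.15, pandas 2.3.3 and matplotlib 3.10.9. Histology and quantitative PCR of the study are not analysed here.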

Additional observations from a re-analysis of the deposited data

How the results depend on the processing

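Egfr and Erbb3 kept their direction and their call under all 16 alternatives, with log2 changes of 1.08 to 1.32 and -1.37 to -1.15, and Tgfa, Hbegf, Egf, Nrg1 and Erbb2 kept their direction and did not pass in any. With 1 pool left out the log2 change ranged from 0.054 to 0.18 for Tgfa, 0.030 to 0.10 for Hbegf, -0.33 to -0.10 for Egf, -0.27 to -0.078 for Nrg1 and 0.020 to 0.16 for Erbb2. Btc was no longer called with the replicate number as a block (log2 change -0.32), arrays centered on medians (-0.28), a trended and robust prior (-0.32) or all rows in the fit (-0.32), nor without any 1 pool (-0.35 to -0.28), so that 1 member was lower in these settings, and also among genes above the median level, which leave out Btc, and at an adjusted p under 0.01. Ereg reversed to -0.031 with array weights and ranged from -0.074 to 0.20 with 1 pool left out. Epgn reversed to 0.00055 with arrays centered on medians and ranged from -0.16 to 0.045 with 1 pool left out, and the mesenchymal gene Vim (log2 change -0.019) reversed to 0.018 and ranged from -0.052 to 0.0095. The cause of these losses was not tested. Of the 102 genes analysed in the 5 further lists together, 15 were higher and 8 lower, beside 6.59% and 7.53% of all genes tested. With array weights 25 were higher, with all rows in the fit or at an adjusted p under 0.01 4 were lower, and with 1 pool left out 13 to 17 were higher and 5 to 8 lower, with 5 lower without control replicate 1 or mutant replicate 3. Over all genes 1313 were higher and 1502 lower, against 3025 and 2422 with array weights, 723 higher at an adjusted p under 0.01, and 843 to 1328 higher and 1132 to 1413 lower with 1 pool left out, the lowest without mutant replicate 1.

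Pools with the same replicate number in the 2 genotypes did not deviate together (r = 0.014, -0.154 and -0.0464 across genes), so the numbers were not taken to pair the pools. With the number as a block 1011 genes were higher and 1274 lower. The 3 pools per genotype limit the precision, and dim genes such as Ereg, Nrg3, Nrg4 and Epgn may lie near background, which no detection call was at hand to show.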
